A study of Mus musculus with 5 samples.

Results

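Olig2 is a basic helix-loop-helix transcription factor that marks the oligodendrocyte lineage and is common in gliomas. Trimethylation of lysine 4 on histone H3 (H3K4me3) is found mainly at promoters, and acetylation of lysine 27 on histone H3 (H3K27ac) is found at active promoters and active enhancers. The 2 marks usually lie together at active promoters, whereas promoters held silent or poised in a tissue can carry H3K4me3 without H3K27ac. The sites described here are Olig2 peaks that overlapped an H3K4me3 peak and no H3K27ac peak in control tumours, called H3K4me3-only Olig2 peaks below.

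These peaks were selected on 3 measured lists of control tumours (Olig2, H3K4me3 and H3K27ac), with an overlap of at least 1 bp and chromosomes 1 to 19 alone. There were 3051 of them among 38527 Olig2 peaks on those chromosomes (7.92%, 95% interval 7.65 to 8.19), and 39201 Olig2 peaks in all. The control marks at these sites are therefore a description, and the measurements that the selection did not use are the 2 lists of Olig2cKO tumours.

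The tumours were PDGFB-induced mouse brain gliomas, taken 25 days after virus injection, on a mixed C57Bl/6;129Sv;CD-1 background. Olig2cKO tumours carried floxed Olig2 alleles (Olig2f/f) and control tumours did not, and both genotypes shared floxed P53 alleles (P53f/f). The age of the animals, how recombination was driven and how many tumours went into a library are not given in the sources used here. Chromatin immunoprecipitation followed by sequencing (ChIP-seq) gave 5 libraries: H3K27ac and H3K4me3 in Olig2cKO tumours, and H3K27ac, H3K4me3 and Olig2 in control tumours. Each group had 1 library, so no difference between genotypes has a replicate check, no test was made between them and no p-value is given. Intervals in brackets are 95% intervals: exact binomial for shares, from ordered values by the binomial distribution for median differences, and by a normal approximation on the log scale for odds ratios. They cover counting error alone and treat peaks as independent. Peaks that lie close together are not independent, so the intervals may be too narrow.

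The lists held 69365 H3K27ac and 48885 H3K4me3 peaks in Olig2cKO tumours, against 56600 and 44676 in control tumours, so the Olig2cKO lists were the longer ones. How many reads went into a list is unknown, and deeper sequencing can lengthen a list. A mark that is not listed may still be present below the threshold of the peak caller. In whole tumours, fewer cells with a mark and less of the mark in each cell cannot be told apart. Loss of Olig2 protein from Olig2cKO chromatin was not checked, because Olig2 was mapped in control tumours. No gene positions on the build of these files were used, so the sites are given by position on mm9, counted from 1, without gene names or sequences, and the tissue was not checked against marker genes.

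The score that the authors' peak caller gave each peak ranks peaks inside a list only. In control tumours the H3K4me3-only Olig2 peaks scored 79.2 for Olig2 in the median (quartiles 61.5 and 119.6) and were 759 bp wide, against 119.05 and 1021.5 bp for the 18370 Olig2 peaks with both marks. The H3K4me3 peaks beneath them scored 246.4 in the median and were 928 bp wide, against 713.2 and 1483 bp beneath Olig2 peaks with both marks. Olig2 peaks with neither mark, of which there were 8920, scored lower still, with a median of 68.7 and a width of 631 bp. The H3K4me3-only sites were thus between the unmarked and the doubly marked sites in Olig2 score, on H3K4me3 peaks of modest score, and their scores reached 827.9 for Olig2 and 3100 for H3K4me3.

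Most H3K4me3-only Olig2 peaks sat on an H3K4me3 peak of their own. The 3051 Olig2 peaks overlapped 3239 control H3K4me3 peaks, of which 27 met 2 of them and none met more. At 212 sites (6.95%, 6.07 to 7.91) the Olig2 peak overlapped more than 1 control H3K4me3 peak, and its position is given against the one with the highest score. The Olig2 peak lay wholly inside its H3K4me3 peak at 1045 sites (34.3%), crossed 1 edge of it at 1664 (54.5%) and spanned it at 342 (11.2%). The middles of both peaks were 169.5 bp apart in the median, against 284.5 bp at Olig2 peaks with both marks. Both peaks were narrower at the H3K4me3-only sites, which leaves less room between the middles, and width was not held fixed. At 1617 sites (53.0%, 51.2 to 54.8) a peak of another list had both edges within 300 bp of the Olig2 peak, against 35.7% of Olig2 peaks with both marks, 9.55% of those with neither mark and 29.6% of all Olig2 peaks. These shares are in part set by how the classes were chosen. Every H3K4me3-only site overlaps a control H3K4me3 peak, whereas only the Olig2cKO lists could give an unmarked Olig2 peak a partner. Narrow peaks meet this limit more easily, and whether shared signal between libraries contributed was not tested. Within the H3K4me3-only sites, Olig2cKO H3K27ac was listed at 33.8% (31.5 to 36.1) of sites with such a partner and at 31.2% (28.8 to 33.6) of the others. Olig2cKO H3K4me3 was listed at 89.7% and 89.9%. The Olig2cKO lists were among those searched for a partner, so a partner there has the mark by definition. These shares therefore cannot show whether shared edges matter.

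The selection left few sites beside acetylated chromatin. The nearest control H3K27ac peak was 11876 bp away in the median (quartiles 4416.5 and 26936.5 bp), within 1000 bp at 227 sites (7.44%) and beyond 10000 bp at 1689 (55.4%). At 86 sites (2.82%) the H3K4me3 peak itself carried control H3K27ac outside the Olig2 peak. The sites nearest the limit of the rule were chr9:72654864-72655988, chr11:115608954-115609295 and chr15:8049085-8049526, with gaps of 1, 3 and 6 bp to control H3K27ac. Just outside it lay chr2:154233448-154234203, chr8:108020651-108021327 and chr13:91026087-91026690, which overlapped control H3K27ac by 1, 1 and 2 bp.

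In Olig2cKO tumours the most frequent state of these sites was again H3K4me3 without H3K27ac. H3K4me3 alone was listed at 1812 of the 3051 sites (59.4%, 57.6 to 61.1), both marks at 928 (30.4%, 28.8 to 32.1), neither at 246 (8.06%, 7.12 to 9.09) and H3K27ac alone at 65 (2.13%, 1.65 to 2.71). H3K4me3 was therefore listed at 2740 sites (89.8%, 88.7 to 90.9). It was listed at 93.1% of all Olig2 peaks with control H3K4me3 and at 58.2% of all Olig2 peaks, so the share at H3K4me3-only sites was near that of Olig2 peaks with H3K4me3 in general. H3K27ac, listed at none of the sites in control tumours by selection, was listed at 993 in Olig2cKO tumours (32.5%, 30.9 to 34.2). The background, these sites included, was 23.9% of the 11971 Olig2 peaks without control H3K27ac and 70.2% of all Olig2 peaks. Among the 8920 Olig2 peaks with neither control mark it was 20.98%.

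**Figure D1:**
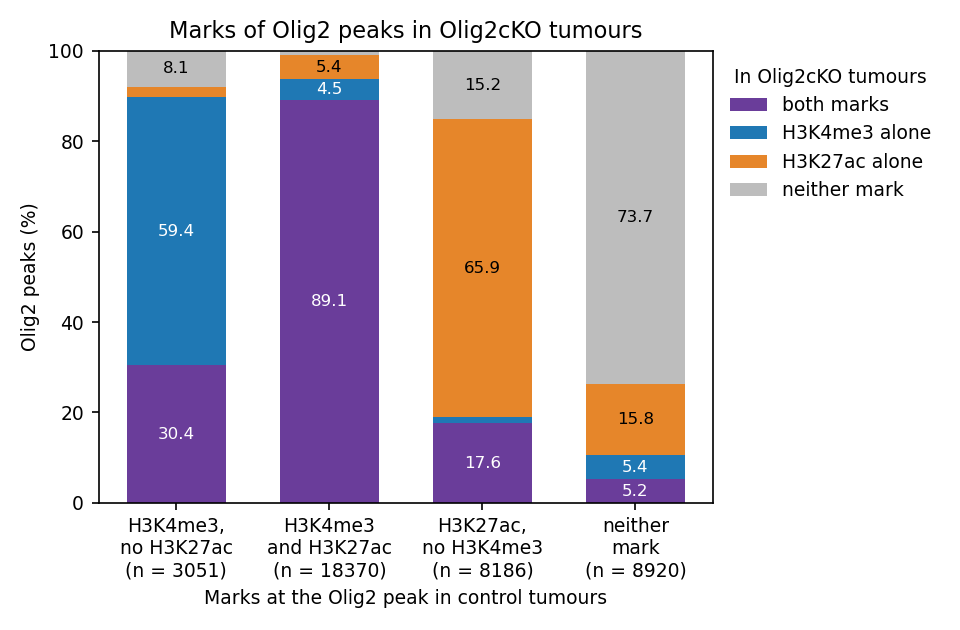
Stacked bars of the share of Olig2 peaks (percent, from 0) in each state in Olig2cKO tumours, for 4 classes of Olig2 peak set by their marks in control tumours; n is the number of peaks and each class comes from the same 5 libraries. H3K4me3-only sites, at the left, were mostly H3K4me3 alone in Olig2cKO tumours (59.4%), and 30.4% had both marks, while 89.1% of the doubly marked class had both and 73.7% of the unmarked class had neither.

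Each mark was listed more often at sites that had the other. H3K4me3 was listed at 928 of the 993 sites with Olig2cKO H3K27ac (93.5%, 91.7 to 94.9) and at 1812 of the 2058 sites without it (88.0%, 86.6 to 89.4). Read the other way, H3K27ac was listed at 33.9% (32.1 to 35.7) of sites with Olig2cKO H3K4me3 and at 20.9% (16.5 to 25.8) of the 311 sites without it. These shares do not hold the control H3K4me3 score fixed. Olig2cKO H3K4me3 was more frequent at higher values of that score and Olig2cKO H3K27ac tended to be, as given below. Whether this accounts for the association was not tested.

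The same question with the genotypes exchanged gave a share of similar size. Of the H3K4me3-only sites of control tumours, 32.5% carried H3K27ac in Olig2cKO tumours. Of the 3235 Olig2 peaks with H3K4me3 and no H3K27ac in Olig2cKO tumours, 945 (29.2%, 27.6 to 30.8) carried H3K27ac in control tumours. The order of these shares turned when the Olig2cKO lists were cut to the length of the control lists by score: 25.1% (23.6 to 26.7) of H3K4me3-only sites then carried Olig2cKO H3K27ac, against 37.9% (36.3 to 39.5) with control H3K27ac in the exchanged comparison. Olig2 was mapped in control tumours, which the exchanged comparison does not correct for. A net direction of acetylation at Olig2 peaks with H3K4me3 was therefore not shown by the lists. At the H3K4me3-only sites themselves the selection allowed a gain alone, and the exchanged comparison used another set of peaks.

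H3K27ac in Olig2cKO tumours was more frequent at H3K4me3-only sites than at Olig2 peaks with neither control mark. The shares were 32.5% and 20.98% (20.1 to 21.8), and the Mantel-Haenszel odds ratio within 10 classes of Olig2 score and 10 of Olig2 width was 1.42 (95% interval 1.29 to 1.56), a value that describes this set of libraries. A ratio above 1 means that the mark was more frequent at the H3K4me3-only sites. The ratio was smaller among stronger peaks: it was 1.18 (1.01 to 1.38) in the upper 50% of Olig2 peaks by score and 1.15 (1.01 to 1.32) with the upper 50% of every list.

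H3K4me3-only sites were also set beside H3K4me3 peaks without Olig2. Of the 14511 control H3K4me3 peaks with no control H3K27ac, 23.7% carried Olig2cKO H3K27ac. The share was 964 of 3147 (30.6%, 29.02 to 32.3) where the Olig2 peaks on them were all H3K4me3-only sites, against 2191 of 10315 (21.2%, 20.5 to 22.0) where there was no Olig2 peak. The peaks with such a site were somewhat higher in score and wider, with medians of 226.6 and 886 bp against 173.8 and 795 bp. Holding H3K4me3 score and width fixed in classes gave an odds ratio of 1.58 (1.45 to 1.74). With every H3K4me3 peak that met an Olig2 peak included, also where the Olig2 peak reached control H3K27ac, the ratio was 1.47 (1.35 to 1.60). It was 1.10 (0.988 to 1.22) once Olig2 peaks that shared both edges with a peak of another list were left out, an interval that includes 1. H3K4me3 peaks that lost their only Olig2 peak this way were counted as having none. That value therefore cannot show what shared edges contribute to the ratio. Olig2cKO H3K4me3 was listed at 89.9% of H3K4me3 peaks whose Olig2 peaks were all H3K4me3-only sites, and at 89.8% of those without Olig2. Within classes the odds of it were lower with such a site (0.799, 0.690 to 0.924).

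For H3K4me3 the direction against doubly marked sites depended on what was held fixed. Olig2cKO H3K4me3 was listed at 89.8% of H3K4me3-only sites and at 93.6% (93.3 to 94.0) of Olig2 peaks with both control marks, an odds ratio of 0.598 (0.525 to 0.682). Within classes of control H3K4me3 score and width the ratio was 1.29 (1.11 to 1.50). It was 1.01 (0.885 to 1.16) when an overlap needed 50% of the shorter peak, 0.838 (0.632 to 1.11) with the upper 50% of every list, and 0.902 (0.724 to 1.12) without Olig2 peaks that shared both edges with a peak of another list. The Olig2cKO H3K4me3 list was among those used to find shared edges, so the 0.902 depends in part on the mark it counts. No difference in the persistence of H3K4me3 between these classes is therefore given.

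The shares were then followed along the scores in control tumours. The H3K4me3-only sites were put in 10 equal groups (deciles) by Olig2 score. The share with Olig2cKO H3K27ac was 26.8% (21.9 to 32.1) in the lowest decile, 23.5% (18.9 to 28.7) in the next, 31.6% in decile 5 and 44.9% (39.2 to 50.7) in the highest. The share with Olig2cKO H3K4me3 stayed between 88.6% and 91.1% in all 10 deciles. By control H3K4me3 score, Olig2cKO H3K4me3 was listed at 62.1% (56.4 to 67.6) of sites in the lowest decile, 96.1% in decile 5 and 98.7% (96.7 to 99.6) in the highest. Olig2cKO H3K27ac also tended to be more frequent on stronger H3K4me3, with 29.1% (24.1 to 34.5) in the lowest decile, 26.9% (22.0 to 32.2) in decile 5 and 38.4% (32.9 to 44.1) in the highest. Doubly marked Olig2 peaks had a like rise of Olig2cKO H3K4me3 over their own deciles of control H3K4me3 score. It was listed at 62.4% of them in the lowest and 99.9% in the highest.

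**Figure D2:**
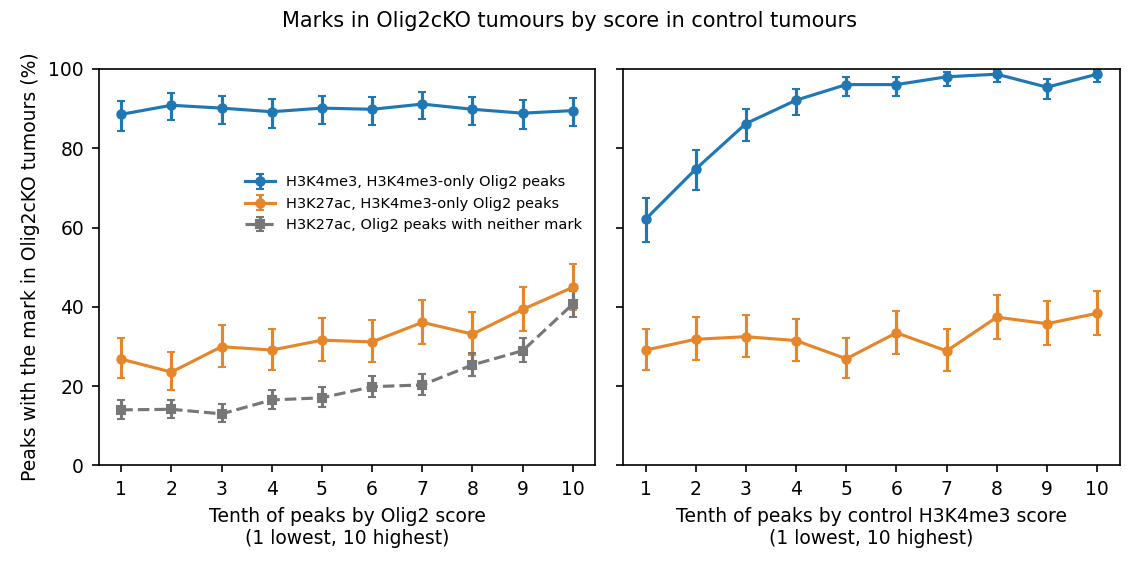
Share of Olig2 peaks with a mark in Olig2cKO tumours (percent), by decile of Olig2 score (left) and of control H3K4me3 score (right); points are shares of about 305 H3K4me3-only sites, or about 892 unmarked Olig2 peaks (grey), and bars are exact binomial 95% intervals. H3K27ac at H3K4me3-only sites reached 44.9% in the highest Olig2 decile and H3K4me3 was at 62.1% in the lowest H3K4me3 decile. Deciles were cut within each class.

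Wider Olig2 peaks have more room to overlap another peak, and width moved with score. Sites in the upper 50% by Olig2 score carried Olig2cKO H3K27ac more often than those in the lower 50%, with an odds ratio of 1.49 (1.28 to 1.74), and 1.27 (1.07 to 1.49) within 10 classes of Olig2 width. When only the middle base of the Olig2 peak was set against the Olig2cKO H3K27ac list, the ratio was 1.62 (1.38 to 1.90). This removes the extra room that wider peaks have to overlap, but it does not hold width fixed. The share rose with Olig2 score elsewhere too: at Olig2 peaks with neither mark the share was 14.0% (11.8 to 16.4) in the lowest decile and 40.7% (37.5 to 44.0) in the highest. Its interval there overlapped that of the H3K4me3-only sites, but deciles were cut within each class. The highest decile spanned Olig2 scores of 154.9 to 1233.7 for unmarked peaks and 187.5 to 827.9 for H3K4me3-only sites.

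Most sites acetylated in Olig2cKO tumours lay on an H3K27ac peak that overlapped no control H3K27ac peak, as the selection makes likely. The selection removed every site on control H3K27ac, and over the 3051 sites the nearest such peak lay 11876 bp away in the median. Olig2cKO H3K27ac peaks at the acetylated sites were 1215 bp wide in the median. The share below was not compared with that of another class of Olig2 peaks, and how the acetylation arose was not tested. Of the 993 acetylated sites, 925 (93.2%, 91.4 to 94.6) lay on an Olig2cKO H3K27ac peak that overlapped no control H3K27ac peak anywhere, and 68 (6.85%) lay on one that did. Medians were a score of 121.3 and 1162 bp for H3K27ac peaks of the first kind, against 246.9 and 3500 bp for the second. All Olig2cKO H3K27ac peaks without a control partner had a median score of 89.1, and the whole list one of 167.7, so acetylation at these sites ranked low to middling in its list. The H3K27ac peak covered a median of 92.7% of the Olig2 peak, and covered it whole at 458 sites.

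Sites near control acetylation carried Olig2cKO H3K27ac more often. It was listed at 97 of the 227 sites within 1000 bp of a control H3K27ac peak (42.7%, 36.2 to 49.4), and at 527 of the 1689 sites beyond 10000 bp (31.2%, 29.0 to 33.5). Where the H3K4me3 peak itself carried control H3K27ac the share was 43 of 86 (50.0%, 39.0 to 61.0). Sites beyond 10000 bp numbered 527 of the 993 acetylated in Olig2cKO tumours and 1689 of all 3051 (55.4%). The first count thus largely reflects where the sites lay.

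Sites without an Olig2cKO H3K27ac peak mostly lay away from one. Of these 2058 sites, 159 (7.73%, 6.61 to 8.97) had an Olig2cKO H3K27ac peak within 1000 bp and 987 (48.0%) within 10000 bp. The corresponding shares for the 7049 unmarked Olig2 peaks without Olig2cKO H3K27ac were 5.76% (5.23 to 6.33) and 49.8%.

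**Figure D3:**
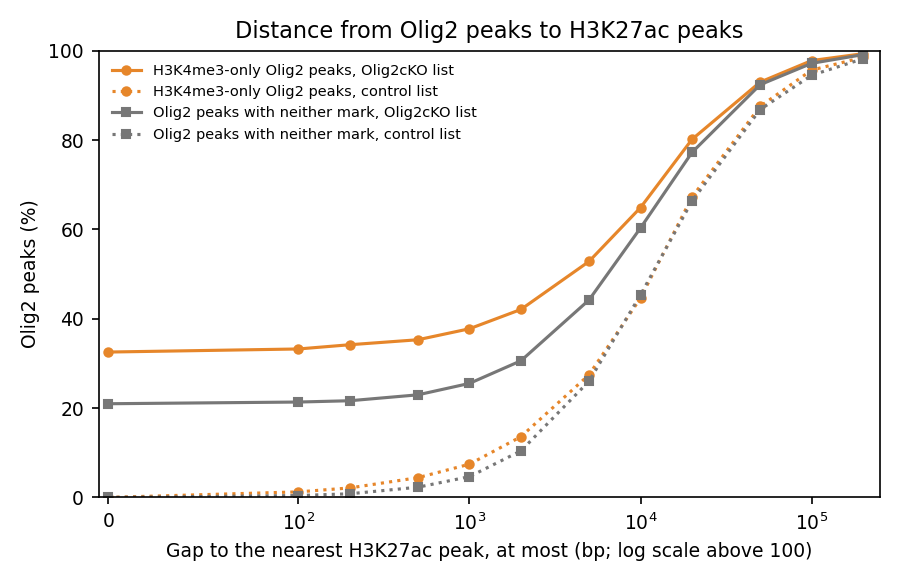
Cumulative share of Olig2 peaks (percent) with an H3K27ac peak at or within a given gap (bp, linear to 100 and on a log scale above), for H3K4me3-only sites (orange) and Olig2 peaks with neither mark (grey), against the Olig2cKO list (solid) and the control list (dotted). At a gap of 0 the Olig2cKO curves start at 32.5% and 20.98% and the control curves at 0 by selection; at 10000 bp the curves of H3K4me3-only sites stand at 64.9% in the Olig2cKO list and 44.6% in the control list.

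The H3K4me3 peaks under these sites were wider in the Olig2cKO list. Among 2470 sites with exactly 1 H3K4me3 peak in each genotype, the median width was 1161.5 bp in Olig2cKO tumours and 947.5 bp in control tumours, with a median difference of 151.5 bp (95% interval 140 to 164), and 77.4% (75.7 to 79.0) were wider in Olig2cKO tumours. Olig2 peaks with both control marks showed a median difference of 136 bp (131 to 141), so widths differed in the same direction at those sites too. Among the H3K4me3-only sites the difference was 230 bp (209 to 256) at the 849 that also carried Olig2cKO H3K27ac, and 121 bp (109 to 132) at the 1621 that did not. Doubly marked sites split the same way showed 138 bp (n = 12819) and 108 bp (n = 714), so the H3K4me3-only sites stood further from them where Olig2cKO H3K27ac was listed. Depth and enrichment of the libraries can change widths, and their part in these differences was not tested.

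**Figure D4:**
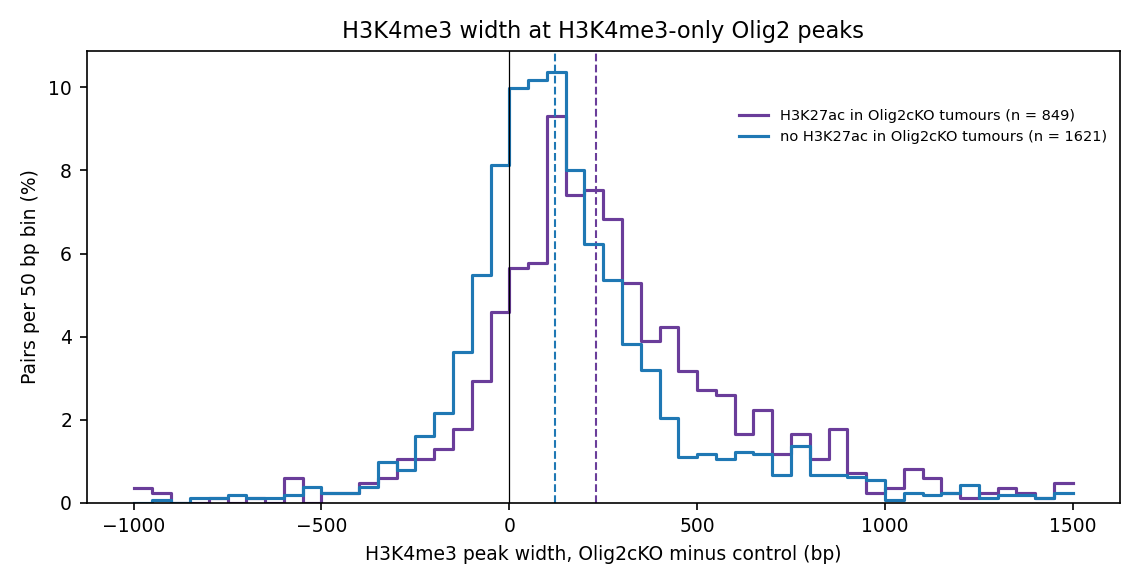
Distribution of the difference in H3K4me3 peak width (bp, Olig2cKO minus control) over H3K4me3-only Olig2 peaks with 1 H3K4me3 peak in each genotype, as percent of pairs in bins of 50 bp, with Olig2cKO H3K27ac (purple) and without it (blue); dashed lines are medians, and 98 of the 2470 pairs lie outside the axis. Both medians lie right of 0, at 230 bp with H3K27ac and 121 bp without.

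Sites that had both marks in Olig2cKO tumours stood on stronger H3K4me3 already in control tumours. Medians of their control H3K4me3 peaks were a score of 307.0 and a width of 1011.5 bp. The sites with H3K4me3 alone in Olig2cKO tumours had 267.1 and 926 bp, those with neither mark 81.8 and 621.5 bp, and the 65 with H3K27ac alone 68.5 and 646 bp. Sites without Olig2cKO H3K4me3 thus mostly came from the low end of the control H3K4me3 list, whose median score was 344.3. The sites with neither mark still reached a score of 2955.2. In their Olig2 score the 4 states were closer, with medians of 86.3, 76.4, 73.6 and 90.9 in the same order.

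The 5 sites with both marks and the highest Olig2cKO H3K27ac scores lay on 4 H3K27ac peaks, none of which had a partner in the control list. chr11:77974716-77976694 and chr11:77976832-77978267 (Olig2 scores 142.3 and 235.4) were neighbours on 1 H3K27ac peak of 3865 bp with a score of 1356.6. Their H3K4me3 peak spanned 5593 bp in Olig2cKO tumours and 4218 bp in control tumours. chr4:8308313-8309786 had an H3K27ac peak of 4110 bp with a score of 1270.8, and its H3K4me3 peak was 2219 bp wide in Olig2cKO tumours and 2300 bp in control tumours. chr3:121402605-121404941 had one of 4764 bp with a score of 1230.3, with H3K4me3 widths of 1814 and 2038 bp in the same order of genotypes. chr10:6239722-6241180 had one of 4112 bp with a score of 1195.5, with H3K4me3 widths of 1271 and 2753 bp. At 3 of the 4 H3K4me3 peaks, then, H3K4me3 was narrower in the Olig2cKO list although H3K27ac was listed there, unlike the median of all such sites. The nearest control H3K27ac lay 4320 to 17937 bp from these 5 sites.

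The 5 sites with the highest Olig2 scores among those with H3K4me3 alone in both genotypes lay 6190 to 27275 bp from any Olig2cKO H3K27ac peak, and 6260 to 14616 bp from any control one. chr1:74341629-74343050 had the highest Olig2 score, 827.9, and lay on a single H3K4me3 peak of 2388 bp in Olig2cKO tumours and on 2 separate H3K4me3 peaks in control tumours, so its widths are not compared. chr6:86824207-86825662 followed with an Olig2 score of 744.3 and H3K4me3 widths of 2315 bp in Olig2cKO and 1087 bp in control tumours. The other three were chr2:165680616-165682216, chr13:46268317-46269798 and chr11:118057974-118060448, with Olig2 scores of 740.1, 671.3 and 620.2. Strong Olig2 peaks without listed acetylation in either genotype were thus present in this set, and their control H3K4me3 scores, 100.6 to 333.4, were all below the median of that list.

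Among the 246 sites with neither mark in Olig2cKO tumours, the 5 with the highest control H3K4me3 scores had scores of 1025.6 to 2955.2. At chr9:107537412-107538132, with the highest, the Olig2 peak (score 66.1, 721 bp) touched the end of a control H3K4me3 peak of 3306 bp that had no Olig2cKO partner along its length. At chr1:172037491-172038298 and chr10:39089002-39090085 the control H3K4me3 peak did overlap an Olig2cKO H3K4me3 peak outside the Olig2 peak, and both H3K4me3 peaks carried control H3K27ac there. The other two, chr15:36721400-36722773 and chr10:8480096-8481086, had Olig2 scores of 54.1 and 54.7, near the lowest score of the list, 50, and the second of these lay on an H3K4me3 peak with control H3K27ac elsewhere. Over all 311 sites without Olig2cKO H3K4me3, 13 (4.18%, 2.24 to 7.04) had an H3K4me3 peak that persisted elsewhere along its length.

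The 3 sites with H3K27ac alone and the highest Olig2cKO H3K27ac scores were chr4:18096655-18098596, chr8:3214885-3216261 and chr10:79627268-79629131, with H3K27ac scores of 627.9, 561.9 and 499.3. Their control H3K4me3 peaks scored 76.1, 55.7 and 127.3, and none of the 3 H3K27ac peaks had a control partner. The H3K4me3 peak of the third overlapped an Olig2cKO H3K4me3 peak outside the Olig2 peak. H3K27ac spanned 5621 bp at the first, where the Olig2 peak had a score of 422.9.

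The sites were spread over all 19 chromosomes. They made up 6.70% to 8.79% of the Olig2 peaks on 18 chromosomes and 10.2% (8.91 to 11.6) on chromosome 10, where 199 of 1948 Olig2 peaks were of this kind. The share with Olig2cKO H3K27ac ranged from 25.2% (17.7 to 34.0) of 119 sites on chromosome 14 to 40.4% (30.7 to 50.7) of 99 on chromosome 16, with intervals that overlap. They fell in 1421 windows of 1 Mb out of 2248 that held an Olig2 peak, with a median of 2 per window.

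**Figure D5:**
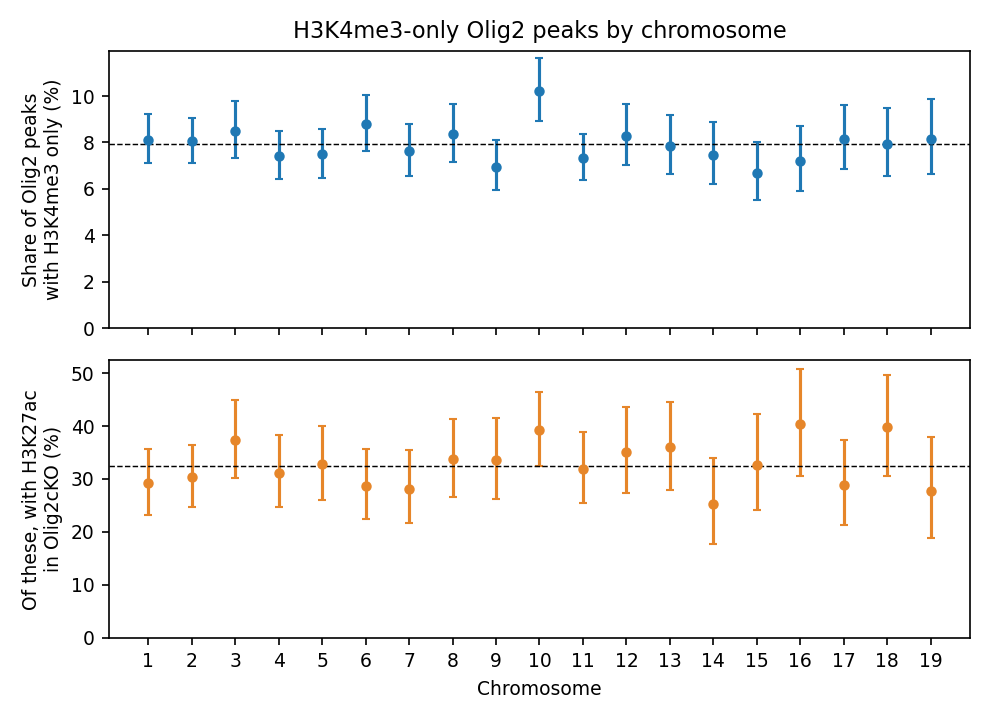
Upper panel, H3K4me3-only sites as a share of all Olig2 peaks on each chromosome (percent); lower panel, share of these sites with H3K27ac in Olig2cKO tumours (percent); bars are exact binomial 95% intervals and dashed lines the values over chromosomes 1 to 19, 7.92% and 32.5%. Chromosome 10 stands highest in the upper panel at 10.2%.

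The 5 windows with most sites held 41 to 58 Olig2 peaks each. Chromosome 5 from 123000001 to 124000000 held 11 sites among 41 Olig2 peaks, of which 11 carried Olig2cKO H3K4me3 and 5 carried Olig2cKO H3K27ac. Chromosome 8 from 87000001 to 88000000 held 10 among 44, with H3K27ac in Olig2cKO tumours at 2. Chromosome 1 from 134000001 to 135000000 held 9 among 43, and none of the 9 carried Olig2cKO H3K27ac while 8 carried H3K4me3. Chromosome 7 from 31000001 to 32000000 and chromosome 10 from 79000001 to 80000000 held 9 each, with Olig2cKO H3K27ac at 2 and 5. Another Olig2 peak lay within 10000 bp of 37.9% (36.2 to 39.6) of the H3K4me3-only sites, against 38.2% (37.5 to 38.9) of doubly marked and 33.6% (32.7 to 34.6) of unmarked Olig2 peaks.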

How the data were processed

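ChIP-seq peak lists of 5 libraries, 1 per group, were analysed. The submitters' processing notes name CASAVA, Bowtie2 and MACS and the mouse build mm9; no versions, settings or input library are given in the sources used here. The deposited lists hold peak positions and the score that the authors' peak caller assigned, with a lowest score of 50, which is not scaled between libraries. Read depth is unknown.

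Overlaps of at least 1 bp, distances and exact binomial intervals came from Python 3.11.15 (numpy 2.4.6, pandas 2.3.3, scipy 1.17.1), and the overlaps were checked against bedtools 2.31.1 and tested on simulated data. Mantel-Haenszel odds ratios used 10 score and 10 width classes; a width or score at a site is the highest over the overlapping peaks, and widths of named sites are those of the peak with the highest score. Figures were drawn with matplotlib 3.10.9.

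The sites and comparisons were chosen with earlier results of these data known. Sites were named by a rule: the highest 5 or 3 by score in each state in Olig2cKO tumours, and the 5 windows of 1 Mb with most sites. Gene lists, motifs and the CpG content that had been planned need positions or sequence on mm9 and were not used here. Alternatives were other score limits, overlap limits, merged peaks and lists of equal length. The middle base, the comparison of upper with lower Olig2 score and the limit to H3K4me3 peaks with H3K4me3-only sites alone were added after seeing the data. A further element of the genotype, the same in both groups, is not reported here.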

Additional observations from a re-analysis of the deposited data

Results flagged for a closer look

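Outside chromosomes 1 to 19, 35 of 674 Olig2 peaks (5.19%, 3.64 to 7.15) met the same rule, all on chromosome X. These were drawn from data that the comparisons do not use. Olig2cKO H3K27ac was listed at 8 of the 35 (22.9%, 10.4 to 40.1) and Olig2cKO H3K4me3 at 27 (77.1%, 59.9 to 89.6).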

How the results depend on the processing

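Of 112 recomputed values, 62 stayed within the 95% interval of the value reported, 47 moved outside it and 3 turned direction. Where a direction changed, the cause was not tested unless the alternative itself shows it. Some of the 62 could not move. Cutting the Olig2cKO lists, for example, cannot change values that use control lists alone, so the tally is no measure of stability. Unknown depth limits every share. No paired analysis was possible because each group had 1 library. The CpG comparison was not run.

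The odds ratio of Olig2cKO H3K4me3 at H3K4me3-only against doubly marked sites, 1.29, was 0.598 without classes, 0.838 with the upper 50% of every list, 0.902 without Olig2 peaks that shared both edges with another list, and 1.01 at an overlap of 50%. With the upper 50% of every list, H3K4me3-only sites were 7.14% of Olig2 peaks, and 93.2% of them had Olig2cKO H3K4me3, 62.5% H3K4me3 alone, 1.31% H3K27ac alone and 5.53% neither. The H3K4me3 peak carried control H3K27ac at 1.24%, the H3K27ac odds ratio against unmarked sites was 1.15, and the width difference was 193 bp. With the upper 50% of the Olig2 list alone, the sites were 6.00% of Olig2 peaks, 38.2% carried Olig2cKO H3K27ac, 35.6% both marks and 54.0% H3K4me3 alone. The exchanged comparison then gave 36.2%, the odds ratio against unmarked sites 1.18 and the width difference 172 bp.

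With Olig2cKO lists cut to the length of the control lists, Olig2cKO H3K27ac was listed at 25.1% and H3K4me3 at 86.3%, both marks at 23.0%, H3K4me3 alone at 63.2%, neither at 11.6%, and the exchanged comparison gave 37.9%. An overlap of 50% gave 8.41% of Olig2 peaks as sites, with Olig2cKO H3K27ac at 30.2%, H3K4me3 at 88.2%, both at 27.9% and neither at 9.47%. It gave 39.1% in the exchanged comparison, 9.69% with control H3K27ac on the H3K4me3 peak, and an odds ratio of 1.71 for H3K4me3 peaks with against without Olig2. Counting peaks up to 1 kb apart gave 32.2% with both marks and 3.73% with control H3K27ac on the H3K4me3 peak. Doing so for H3K27ac alone gave 7.33% of Olig2 peaks as sites, 34.4% with Olig2cKO H3K27ac and 32.2% with both marks. Merging peaks within 1 kb put control H3K27ac on 6.19% of the H3K4me3 peaks.

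Without Olig2 peaks that shared both edges with another list, sites were 5.29% of Olig2 peaks, with both marks at 28.7% and H3K4me3 alone at 61.2%. The Olig2cKO lists were among those used to find shared edges, so shares and ratios under this alternative depend in part on the marks they count. The H3K4me3 peak then carried control H3K27ac at 5.30%, the exchanged comparison gave 32.2%, and the width difference was 190 bp. The H3K27ac odds ratio was 1.73 against unmarked sites. It was 1.10 for H3K4me3 peaks with any Olig2 peak against those without, where the value with all peaks was 1.47. H3K4me3 peaks whose only Olig2 peak was left out counted as without one in the 1.10. Without classes the ratio against unmarked sites was 1.82. With the middle base of the Olig2 peak, an alternative chosen after seeing the data, Olig2cKO H3K27ac was listed at 26.8% and H3K4me3 at 83.7%.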
